A study of Mus musculus with 2 samples.

Results

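The Myc family and the network of its partner Max were followed in day 6 embryoid bodies, floating cell aggregates that mouse embryonic stem cells form as they differentiate. The 10 members (Myc, Mycn, Mycl1, Max, Mga, Mnt, Mlx, Mxd1, Mxd3 and Mxd4) were taken by gene name from the 20207 genes of the library tables, and all 10 were found with reads in both libraries. In both groups the cells held short hairpin RNAs, switched on by doxycycline, that target HoxBlinc, a long noncoding RNA of the HoxB cluster. The group without doxycycline was 1 library from day 6 cultures. The group with doxycycline was 1 library from day 6 cultures given 2 ug/ml from day 2. Each library pooled the RNA of 2 hairpins. The growth protocol names 2 stem cell lines, R1/E and CGR8 MHC-GFP, kept on irradiated feeders until differentiation and then moved off them, without saying which gave these libraries. No library with doxycycline and a control hairpin was analysed here, so effects of the drug and of the hairpins cannot be told apart. HoxBlinc itself was not analysed here, so its level does not check the labels.

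Myc proteins are transcription factors that bind DNA only when paired with Max, and the pairs recognise the E-box CACGTG. Pairs of Myc with Max are known to activate genes of growth, ribosome production and metabolism. Mnt and the Mxd proteins compete for Max and recruit Sin3 corepressors to the same sites. Mlx is the partner of a parallel branch that senses glucose, and Mga pairs with Max in a Polycomb-type complex that silences germ cell genes in embryonic stem cells. In pluripotent cells Myc and Mycn are known to act redundantly.

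The total over genes was 37046449 counts in the library without doxycycline and 24924921 in the library with it. A floor of 3 counts was 0.0810 and 0.120 CPM (each gene's count scaled to the same total in both libraries). Genes holding 2 counts outnumbered those with 1, by 846 to 583 and by 603 to 296, as when mates of a pair are counted singly. All intervals given are therefore 95% exact intervals with the counts halved. They cover counting error only, and with 1 library per group no difference has a replicate check and none was tested. Levels of different genes are compared as RPKM (the authors' scale, reads scaled to gene length and library size), and differences between the libraries as ratios of CPM. The median log2 ratio of the 11063 measured genes, those that reached an RPKM of 1 in either library, was -0.03 in CPM. On the log2(RPKM + 0.5) scale it was -0.18. Because the samples were bulk RNA, fewer cells of a type and less RNA per cell cannot be told apart.

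The E-box that these proteins share stands in the promoters of several members themselves. RefSeq promoter windows (GRCm38.p6, from 250 bases before to 50 after the gene start) were matched for 9 of the 10 members, and 4 of the 9 held CACGTG, the same letters on both strands. Of the 15694 genes of the tables with a window, 9.5% held it. The 4 members were Max, Mlx, Mnt and Mxd4. The 30 bases around each E-box are shown 5′ to 3′ on the gene's strand, with the E-box in capitals, because they place members of the network among genes that carry its own motif. They lie at chr12:76962234-76962263 for Max on the minus strand, chr11:101087238-101087267 for Mlx and chr11:74830789-74830818 for Mnt on the plus strand, and chr5:34187912-34187941 for Mxd4 on the minus strand.
Max: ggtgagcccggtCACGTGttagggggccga
Mlx: ggtgggttggatCACGTGactgagcctcgc
Mnt: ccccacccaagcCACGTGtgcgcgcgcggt
Mxd4: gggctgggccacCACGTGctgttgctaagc

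These are matches to letters and not measured binding sites. The windows of Mycn, Mycl1, Mga, Mxd1 and Mxd3 held no CACGTG, which says only that these letters are not in the window. Among the 4 members with the motif, Mxd4 was lower with doxycycline, and the intervals of Max, Mlx and Mnt included no difference. Over all measured genes with a window, the 1087 with the E-box had a median log2 ratio of -0.16 on the log2(RPKM + 0.5) scale. The 7756 without it had a median of -0.18. At least 2-fold lower were 1.2% of the genes with the E-box and 2.53% of those without it. At least 2-fold higher were 0.184% and 0.193%, and neither difference was tested.

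Mycn was the member with the largest fold between the libraries. Its fold was not separated from that of Mxd3 beyond counting error (ratio 0.775, 0.498 to 1.23). Mycn (chromosome 12, 12942899 to 12948642; all member positions are those of the authors' tables, build mm9), the form best known from embryonic and neural progenitors, stood at 10.5 RPKM without and 4.44 RPKM with doxycycline. Its 1665 and 533 counts were 44.9 and 21.4 CPM, 2.10-fold lower with doxycycline (1.83 to 2.43). On the log2(RPKM + 0.5) scale 1.87% of all measured genes had a lower ratio. Myc (chromosome 15, 61816896 to 61821916), the founding member and a driver of proliferation, was expressed at a fraction of the Mycn level. It stood at 2.13 RPKM without and 1.27 RPKM with doxycycline. Its 313 and 141 counts were 1.49-fold lower in CPM (1.12 to 2.02). Mycl1 (chromosome 4, 122673342 to 122679723), the third and least studied paralog, stood at 5.65 RPKM without and 4.19 RPKM with doxycycline. Its 1210 and 677 counts were 1.20-fold lower in CPM (1.05 to 1.38).

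All 3 Myc-class genes were thus lower in the library with doxycycline, and by unequal amounts. The Mycn fold was lower than the Mycl1 fold by a factor of 0.572 (0.470 to 0.696), a ratio that does not depend on library scaling. Between Myc and Mycn the separation was narrow, the fold of Myc being 1.40 times that of Mycn (1.01 to 1.94). Within the library without doxycycline Mycn was 4.92 times Myc in RPKM (4.15 to 5.89) and 1.85 times Mycl1 (1.67 to 2.06). With doxycycline Mycn was 3.49 times Myc (2.69 to 4.64). There Mycn and Mycl1 were level, at a ratio of 1.06 with an interval of 0.899 to 1.25 that includes 1.

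**Figure D1:**
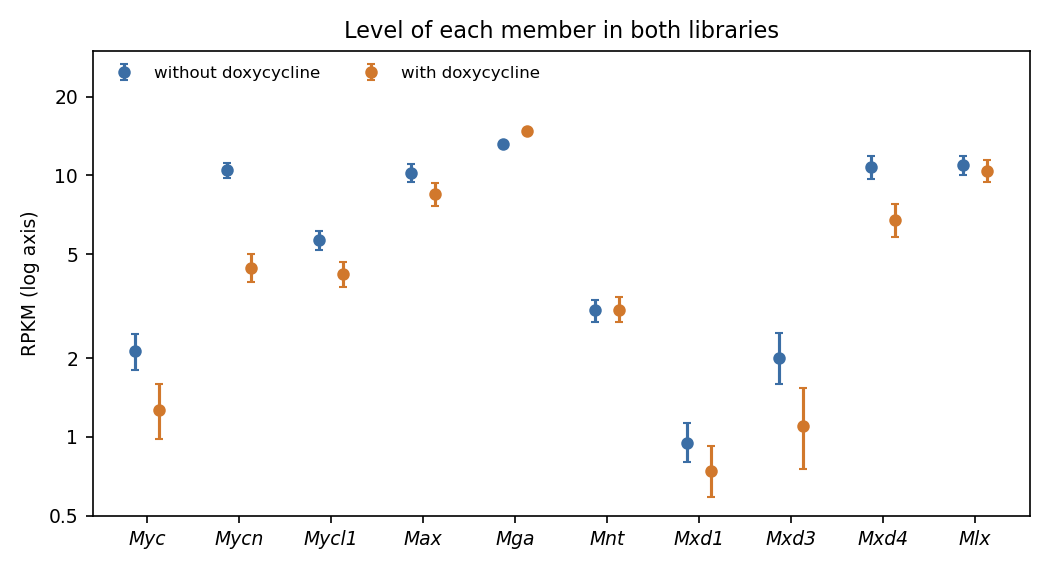
Level of each member in RPKM (log axis) without (blue) and with (orange) doxycycline, 1 library each, with bars for the 95% counting interval at halved counts. Mycn stood at 10.5 and 4.44 RPKM with bars far apart, while Mnt stood at 3.05 and 3.07 RPKM.

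The sum of the 3 genes was 18.2 RPKM without and 9.90 RPKM with doxycycline, 1.84-fold lower on the authors' scale. In summed counts, which give longer genes more weight, the sum was 1.59-fold lower in CPM (1.45 to 1.74). Mycn made up 57.4% of the summed RPKM without and 44.9% with doxycycline. The share of Mycl1 was 31.0% without and 42.3% with doxycycline, and that of Myc 11.7% and 12.8%.

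Max (chromosome 12, 78038256 to 78063235), the obligate partner, differed little in CPM. It stood at 10.2 RPKM without and 8.47 RPKM with doxycycline. Its 1236 and 774 counts gave a CPM 1.07-fold lower, with an interval of 0.945 to 1.22 that includes 1. The log2 ratio of Max was -0.27 in the authors' RPKM and -0.50 in their RMS-normalized RPKM, a ratio to the RMS over genes. The fold of Mycn was 0.511 times the fold of Max (0.421 to 0.619). Max and Mycn were level without doxycycline, at a ratio of 0.974 (0.877 to 1.08). With doxycycline Max was 1.91 times Mycn (1.63 to 2.24). Summed Myc-class RPKM was 1.79 times the Max RPKM without and 1.17 times with doxycycline.

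**Figure D2:**
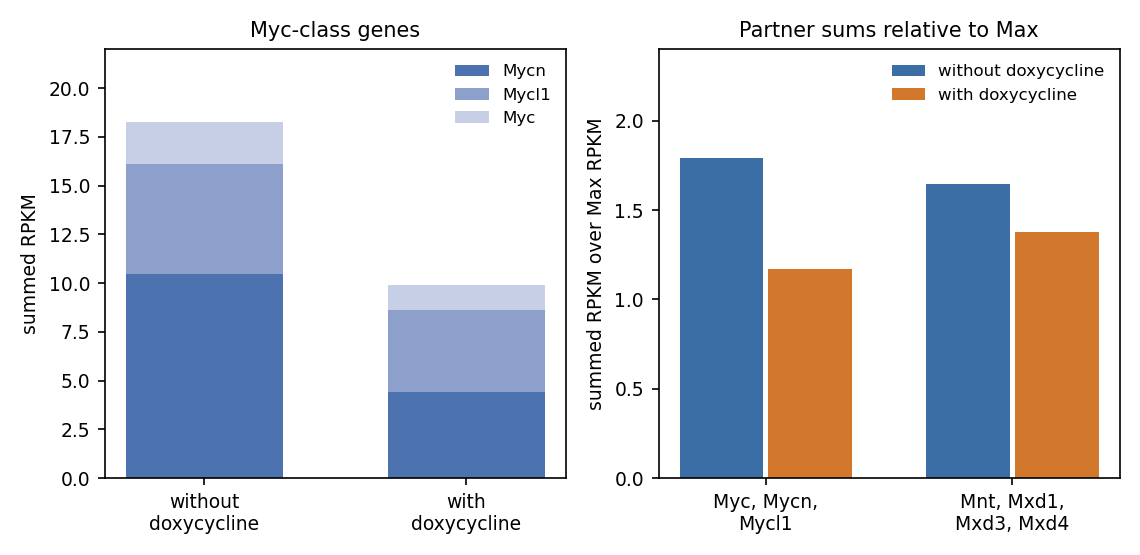
Left, RPKM of Mycn, Mycl1 and Myc stacked for each library; right, summed RPKM of the Myc-class genes and of Mnt with the Mxd genes, each divided by the RPKM of Max. The Myc-class sum went from 1.79 to 1.17 times Max and the Mnt and Mxd sum from 1.64 to 1.38 times Max; values are single libraries with no error bar.

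The antagonists of Myc did not move together. Mnt (chromosome 11, 74644426 to 74659227), the most widely expressed of them, was at 3.05 RPKM without and 3.07 RPKM with doxycycline. Its CPM with doxycycline was 1.13 times that without, with an interval of 0.977 to 1.31 that includes 1, and in RMS-normalized RPKM it was lower (log2 ratio -0.22). Mxd4 (chromosome 5, 34519229 to 34530359), a repressor linked to differentiating cells, stood at 10.8 RPKM without and 6.73 RPKM with doxycycline. Its 778 and 367 counts were 1.43-fold lower in CPM (1.19 to 1.70). Mxd3 (chromosome 13, 55426529 to 55431091), the Mxd gene known to be expressed in cycling cells, stood at 2.00 RPKM without and 1.10 RPKM with doxycycline. Its 159 and 66.0 counts were 1.62-fold lower in CPM (1.07 to 2.53), so its size is poorly fixed. Mxd1 (chromosome 6, 86597039 to 86619153), induced at terminal differentiation, was the lowest member, at 0.949 RPKM without and 0.743 RPKM with doxycycline. It fell under the RPKM filter, and its fold of 1.14 lower had an interval of 0.861 to 1.53 that includes 1. Between Mnt and Mxd4 the folds were separated beyond counting error, at a ratio of 1.61 (1.28 to 2.03).

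Per length, Mxd4 was the leading antagonist in both libraries, 11.4 times Mxd1 without and 9.07 times with doxycycline. Mnt and the 3 Mxd genes summed to 16.8 RPKM without and 11.6 RPKM with doxycycline, 1.44-fold lower. The Myc-class sum was 1.09 times that of these antagonists without and 0.850 times with doxycycline, a ratio free of library scaling but given no interval. Its place above or below 1 depends on the genes and measure used. The sum leaves out Mxi1, an Mxd-type repressor outside the member list, at 6.21 RPKM without and 4.08 RPKM with doxycycline. In summed counts the Myc class stood above these antagonists in both libraries, at 3188 against 2064 without and 1351 against 1244 with doxycycline. These are ratios of RNA, and protein was not measured.

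Mga and Mlx, which belong neither to the Myc class nor to the Mnt and Mxd genes, were not lower in CPM. On the authors' RMS-normalized scale both were. Mga (chromosome 2, 119722964 to 119795317), a very large protein with both a T-box and a Max-pairing domain, was the highest member in RPKM in both libraries. It stood at 13.2 RPKM without and 14.8 RPKM with doxycycline. Its 11240 and 9541 counts gave a CPM 1.26 times higher with doxycycline (1.21 to 1.31), but in RMS-normalized RPKM its log2 ratio was -0.064. It was the 1 measured member whose interval lay above 1, and 90.9% of measured genes had a lower ratio. Mlx (chromosome 11, 100948604 to 100953520) stood at 10.9 RPKM without and 10.4 RPKM with doxycycline, and its CPM ratio of 1.07 had an interval of 0.946 to 1.21 that includes 1.

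The gene models of 2 members touch a neighbour, and no source used here states whether the libraries kept strand, so some reads there cannot be assigned with certainty. Mxd3 shares 105 bases with Prelid1, a mitochondrial lipid carrier gene at 110.1 RPKM without and 82.8 RPKM with doxycycline, which was 1.19-fold lower in CPM (1.12 to 1.25). Mlx shares 50 bases with Psmc3ip, a meiotic recombination cofactor gene at 12.9 and 10.3 RPKM.

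**Figure D3:**
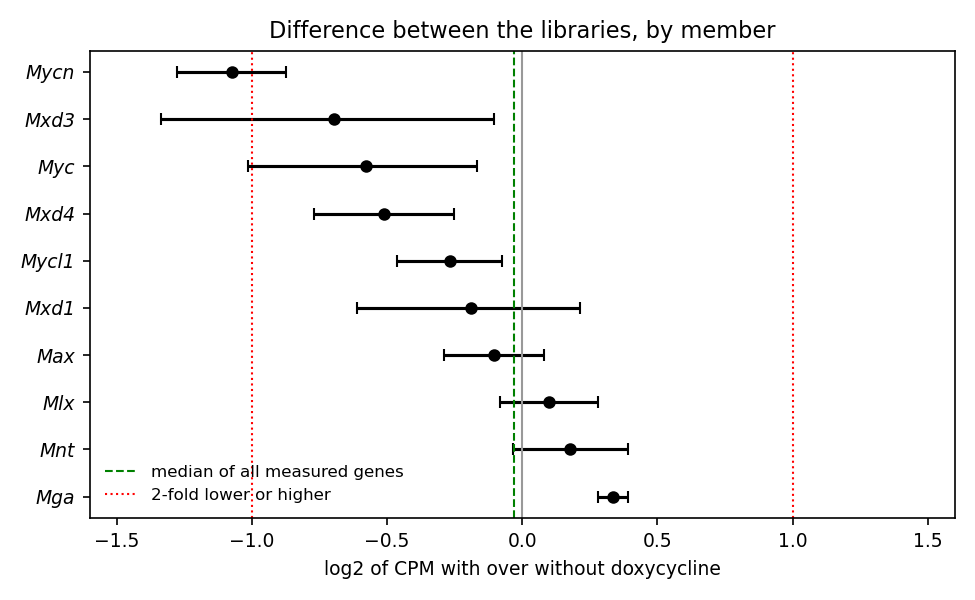
Log2 ratio of CPM, with over without doxycycline, for each member with its 95% interval at halved counts; the dashed line is the median of all measured genes (-0.03) and the dotted lines mark 2-fold. Mycn lies near the 2-fold line on the lower side; on the upper side the interval of Mga alone lies above 0, and its ratio is below 0 on the authors' RMS-normalized scale.

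In the order of the levels, Mycn and Mxd4 stood above Max without doxycycline and below it with doxycycline. Without doxycycline Mga led, then came Mlx, Mxd4, Mycn and Max, of which no neighbours differed beyond counting error (ratios of 1.01 to 1.03). Mycl1, Mnt and Myc followed, each separated from the next above it. Myc and Mxd3 were not separated, at a ratio of 1.07 (0.801 to 1.40), and Mxd1 was last. With doxycycline Mga, Mlx, Max and Mxd4 were each separated from the next below. Mycn came next, level with Mycl1. Myc and Mxd3 were again not separated (ratio 1.16, 0.749 to 1.80). Mxd3 and Mxd1, separated without doxycycline at a ratio of 2.10 (1.58 to 2.80), were not separated with it (1.48, 0.955 to 2.25). Without doxycycline Mycn was above 72.9% of the 17914 genes with reads, and with doxycycline above 52.8% of the 15764 with reads. Of 1248 olfactory, vomeronasal and trace amine receptor genes, 661 had reads without and 75 with doxycycline, and the part of such low counts in these ranks was not tested.

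Counted on the log2(RPKM + 0.5) scale, 1 of the 9 measured members was lower by 2-fold or more and 0 were higher by as much. Among all measured genes the share was 2.64% on the lower side (292 genes) and 0.262% on the higher (29 genes). The 1 member was Mycn, with a log2 ratio of -1.15. Centred on the median of all genes its ratio was -0.97, so 0 members were past 2-fold, and over all genes 193 were lower and 50 higher. By 1.5-fold or more 3 members were lower, Mycn, Mxd3 and Mxd4, against 9.23% of all measured genes, and 0 were higher, against 1.08%. With the 0.5 RPKM still added and the values scaled by gene counts or centred, Mycn alone was past 1.5-fold. In CPM, with nothing added, Mxd3 was 1.62-fold lower. By the interval at halved counts 5 of 9 were lower in CPM, 1 was higher and 3 included no difference. Over all measured genes 30.2% were lower and 22.8% higher by that rule, so a difference beyond counting error is common between these libraries. The median log2 ratio of the 9 measured members was -0.39, against -0.18 for all measured genes, and over all 10 it was -0.32.

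Related genes that the member list leaves out were looked at as well. Mxi1, the remaining Mxd-type repressor, stood at 6.21 RPKM without and 4.08 RPKM with doxycycline, and no count ratio is given because its gene model was not the same in both tables. Mlxip, which encodes the glucose sensor MondoA, was at 1.85 and 1.86 RPKM. Its relative Mlxipl, encoding ChREBP, was low, at 0.371 and 0.294 RPKM. Bmyc, a rodent relative of Myc that lacks the DNA-binding domain, had 133 counts in each library, 1.49 times higher in CPM with doxycycline (1.04 to 2.12). Mycs had 2 counts in each library and was under the floor.

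For the lists that follow, genes were named by their log2(RPKM + 0.5) ratio, on which the median gene was at -0.18, so most of those named were lower. Counts by the CPM interval are given in both directions, to be read against 30.2% lower and 22.8% higher over all measured genes. The genes furthest on the higher side were named after their values were seen. In RMS-normalized RPKM most of the genes named below as higher were lower; Thbs1, Mthfd2, Fbxo32, Sox1 and Slc7a5 were not. Of 18 Myc cofactor genes 0 were past 2-fold in either direction, and their relative median (the list's median log2 ratio minus that of all measured genes) was -0.02. By CPM interval 7 of 17 compared were lower and 2 higher. Actl6a, an actin-like subunit of chromatin remodelers, had 47.5 RPKM without doxycycline and 32.3 RPKM with it. In CPM it was 1.31-fold lower (1.23 to 1.40). Ruvbl1 was 1.26-fold lower (1.17 to 1.35), and Ruvbl2, its partner among the AAA ATPases, 1.20-fold (1.14 to 1.26). Zbtb17, whose product Miz1 carries Myc to repressed genes, was 1.19-fold lower (1.09 to 1.30); its model overlaps that of Spen. Bptf, a chromatin remodeler gene, was 1.25 times higher (1.20 to 1.30). Of 17 genes of Myc protein turnover 0 were past 2-fold (relative median 0.02), and by CPM interval 4 were lower and 4 higher. The lower ones were Skp2, a ubiquitin ligase subunit for Myc (1.46-fold, 1.32 to 1.61), the mitotic kinases Plk1 (1.38-fold, 1.29 to 1.48) and Aurka (1.37-fold, 1.27 to 1.47), the latter known to stabilise Mycn protein, and the ligase gene Stub1 (1.20-fold, 1.13 to 1.27). The model of Stub1 overlaps that of Jmjd8. On the higher side were the ligase genes Fbxo32 (1.36 times, 1.09 to 1.69) and Huwe1 (1.25 times, 1.21 to 1.28).

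The Sin3 corepressor genes that serve Mnt and Mxd proteins lay close to the median of all genes, their relative median being -0.05 and 0 of 15 passing 2-fold. Ing2, a reader of trimethylated histone H3 in that complex, was 1.45-fold lower (1.24 to 1.72), its relative Ing1 1.21-fold (1.08 to 1.35) and the deacetylase gene Hdac2 1.12-fold (1.06 to 1.18). Brms1 had an interval that included 1 (0.947 to 1.33). By CPM interval 5 of 15 were lower and 2 higher, led by the histone chaperone gene Rbbp7 (1.19 times, 1.16 to 1.22), whose model overlaps another gene. Of the 13 genes of the complex that holds Mga 0 were past 2-fold (relative median -0.08). Cbx1, a heterochromatin protein gene, was 1.25-fold lower (1.16 to 1.35), Yaf2, a Polycomb subunit gene, 1.19-fold (1.05 to 1.34) and L3mbtl2, another subunit gene, 1.18-fold (1.10 to 1.27). Hdac2 belongs to this list as well. Pcgf6, the Polycomb ring finger subunit of this complex, was 1.23 times higher (1.11 to 1.37). By CPM interval 7 were lower and 2 higher.

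Known activated targets of Myc were split into 3 lists. For ribosome biogenesis the relative median was -0.06, and 0 of 36 genes passed 2-fold. Grwd1, a ribosomal protein chaperone, had 27.3 RPKM without and 18.6 RPKM with doxycycline and was 1.31-fold lower in CPM (1.20 to 1.43). The nucleolar gene Rrp9 was 1.30-fold lower (1.19 to 1.42) and Nle1 1.31-fold (1.11 to 1.55). Fbl, encoding fibrillarin, was 1.28-fold lower (1.20 to 1.37). As far on the higher side were Npm1, encoding nucleophosmin (1.32 times, 1.29 to 1.34), and Utp20 (1.32 times, 1.26 to 1.38). By CPM interval 14 of 35 compared were lower and 4 higher. In the metabolic list 2 of 24 genes passed 2-fold on the lower side and 0 on the higher, and the relative median was -0.13. Both encode glycolytic enzymes. Ldha had 406 RPKM without and 165 RPKM with doxycycline and was 2.19-fold lower in CPM (2.13 to 2.26). Pkm2 had 913 and 377 RPKM and was 2.16-fold lower (2.12 to 2.19). The lactate carrier Slc16a1 was 1.68-fold lower (1.63 to 1.74) and the glucose carrier Slc2a1 1.46-fold lower (1.43 to 1.49). The 1 gene at least 1.5-fold higher was Mthfd2, a mitochondrial folate enzyme, at 8.33 RPKM without and 13.1 RPKM with doxycycline. The amino acid carrier Slc7a5 was 1.33 times higher (1.20 to 1.47). By CPM interval 14 of these 24 were lower and 8 higher.

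Among cell cycle and translation targets 3 of 22 passed 2-fold on the lower side and 0 on the higher, and the relative median was -0.25. Ccnd2, cyclin D2 and a direct Myc target, had 14.5 RPKM without and 6.31 RPKM with doxycycline and was 2.05-fold lower in CPM (1.89 to 2.21). Ccne1, cyclin E1, was 1.93-fold lower (1.74 to 2.15), Ccnd1, cyclin D1, 1.88-fold (1.67 to 2.13) and Id2, an inhibitor of differentiation factors, 2.03-fold (1.80 to 2.29). Centred on the median of all genes, 0 of the cell cycle and translation genes were past 2-fold. By CPM interval 14 of them were lower and 3 higher, led by the chaperone gene Hspe1 (1.17 times, 1.12 to 1.23). Genes that Myc is known to repress gave no single direction, with 1 of 13 at least 2-fold lower, 0 higher and a relative median of -0.10. Gas1, a growth arrest gene that is not past 2-fold when centred, was 2.18-fold lower (1.81 to 2.64), Ndrg1 1.83-fold (1.61 to 2.09) and Cdkn2a 2.05-fold (1.21 to 3.65). Thbs1, the angiogenesis inhibitor thrombospondin, was 1.58 times higher in CPM (1.53 to 1.63), at 40.7 RPKM without and 57.4 RPKM with doxycycline. By CPM interval 6 of the 13 were lower and 6 higher.

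**Figure D4:**
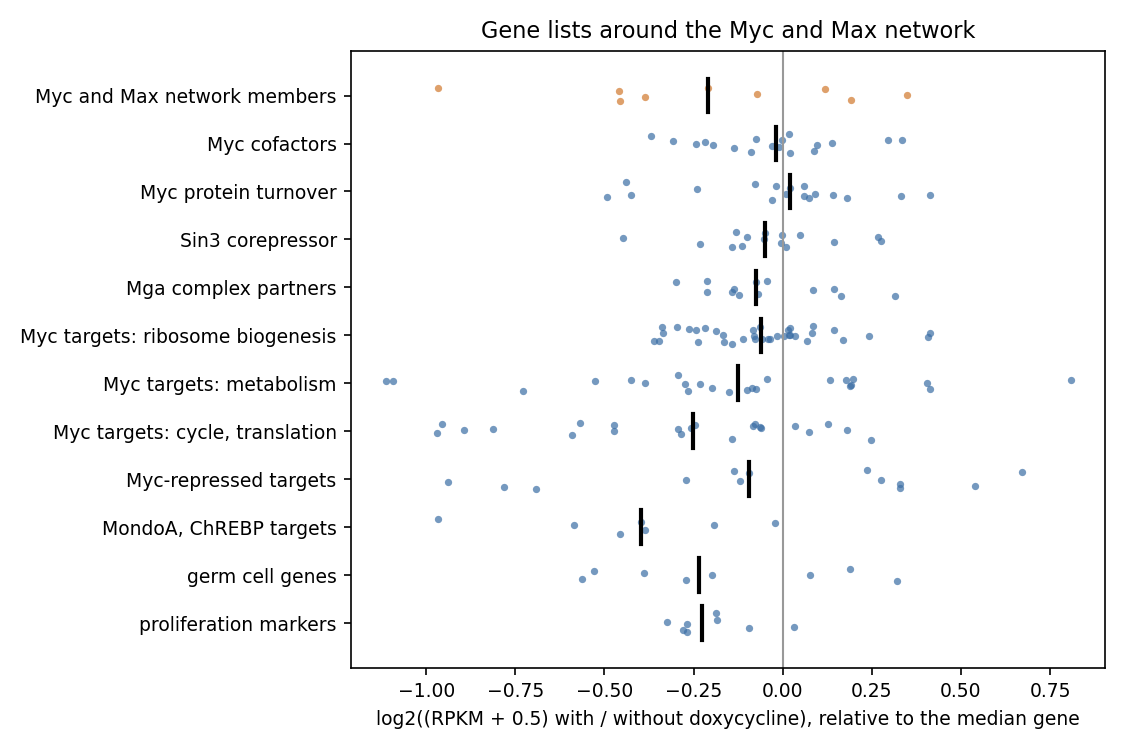
Log2 ratio of (RPKM + 0.5), with over without doxycycline, minus that of the median gene, for each measured gene of 12 lists (points, the network members in orange) with the list median (black bar). Mycn is the lowest orange point at -0.97. Ribosome biogenesis genes sit around the median gene (-0.06) and cell cycle and translation targets spread further down (-0.25). The medians of proliferation markers (-0.23) and germ cell genes (-0.23) lie close to the latter, and that of MondoA and ChREBP targets (-0.40) lies lower.

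Targets of MondoA and ChREBP, which pair with Mlx, lay below the median gene in all 7 measured of 10, with 1 at least 2-fold lower, 0 higher and a relative median of -0.40. Scd1, a fatty acid desaturase also short of 2-fold when centred, was 2.44-fold lower (2.01 to 2.98), the lipid synthesis gene Acly 1.53-fold (1.46 to 1.59) and Fasn, fatty acid synthase, 1.40-fold (1.35 to 1.46). The arrestin-like Arrdc4 was 1.35-fold lower (1.20 to 1.51). By CPM interval 6 were lower and 0 higher. Several of these genes also answer to sterol-regulated factors.

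Of 18 germ cell genes, the class that Mga and its complex hold silent, 8 reached the RPKM filter. Among these 8, 0 were past 2-fold and the relative median was -0.23, and by CPM interval 4 were lower and 0 higher. Sycp3, a meiotic chromosome axis gene, was the highest of them, at 14.0 RPKM without and 14.1 RPKM with doxycycline. Its model overlaps that of Chpt1, so some of its reads cannot be assigned with certainty. Mael, a piRNA pathway gene, had 3.18 RPKM without and 1.69 RPKM with doxycycline and was 1.67-fold lower in CPM (1.24 to 2.31). The RNA helicase gene Mov10l1 was 1.76-fold lower (1.37 to 2.27) and Ddx4, another helicase, 1.45-fold (1.16 to 1.83). The cohesin gene Stag3 was 1.25-fold lower (1.12 to 1.41). The E-box stood in the promoter windows of 12 of these 18 genes, or 66.7%, against 9.5% of all genes with a window. Of the activated Myc targets it stood in 8 of 19 cell cycle and translation genes, 5 of 21 metabolic and 8 of 31 ribosome biogenesis genes with a window. Examples from both kinds of target are shown in the same way, with the E-box in capitals: Ddx4 at chr13:112652322-112652351 on the minus strand, Stag3 at chr5:138280327-138280356 and Ldha at chr7:46845744-46845773 on the plus strand, and Mael at chr1:166238950-166238979 on the minus strand. Ldha holds a second CACGTG in the window.
Ddx4: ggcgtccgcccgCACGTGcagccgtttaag
Stag3: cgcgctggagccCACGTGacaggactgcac
Mael: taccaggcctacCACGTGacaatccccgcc
Ldha: cggcccagcctaCACGTGggttcccgcacg

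Markers of several cell types differed between the libraries along with Mycn, and their part in its difference was not tested. Of 8 proliferation markers 0 passed 2-fold, while by CPM interval 7 were lower and 0 higher. Their relative median was -0.23, and they summed to 566.9 RPKM without and 439.9 RPKM with doxycycline. Pluripotency markers, which label cells known to express Mycn, were at least 2-fold lower in 1 of 9 (Dppa3), with a relative median of -0.25 and a sum of 179.9 against 126.1 RPKM. By CPM interval 7 of these 9 were lower and 0 higher. Over all measured genes 30.2% were lower and 22.8% higher by that rule. Neural markers were at least 2-fold lower in 2 of 5 measured (Pax6 and Tubb3) and higher in 0, with sums of 18.04 and 16.1 RPKM, and Neurog1 was at 0 without doxycycline. Sox1 was 1.35 times higher in CPM (1.16 to 1.56) and Nes, the most abundant of the list, 1.14 times (1.06 to 1.22). The model of Sox1 overlaps that of Gm5607. At least 2-fold lower were 5 of 5 measured endothelial markers (Kdr, Tie1, Esam, Tek and Pecam1), whose list summed to 12.4 and 1.82 RPKM. Of the blood markers 3 of 4 measured were (Hbb-bh1, Hba-x and Alas2), with sums of 40.0 and 1.00 RPKM and with Hba-x, Hbb-bh1 and Hbb-y at 0 with doxycycline. Of the cardiac markers 4 of 6 were (Myl7, Tnni1, Nkx2-5 and Tnnt2), with sums of 55.1 and 27.5 RPKM and Nkx2-5 at 0 with doxycycline. Myh7, at 21.7 and 21.6 RPKM, made up most of the cardiac sum with doxycycline. Of the endoderm markers 4 of 7 were (Ttr, Hnf4a, Gata6 and Apoa1), with sums of 24.0 and 6.89 RPKM. Of the feeder fibroblast markers 4 of 6 were (Postn, Col3a1, Pdgfrb and Twist2), with sums of 93.2 and 50.3 RPKM. In these lists 0 markers were at least 2-fold higher. Kdr, Tie1, Esam, Tek, the measured blood markers and the 4 endoderm genes named reached an RPKM of 1 only without doxycycline. A gene let in that way can only be lower, just as one let in only with doxycycline can only be higher. These counts therefore depend in part on the filter. Of all measured genes, 2.64% passed the 2-fold cut on the lower side and 0.262% on the higher.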

How the data were processed

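RNA from 1 library per group underwent paired-end sequencing, per the labels' protocols. The submitters' processing notes list Bowtie2 and the build mm9. How reads were counted, on which annotation and with which strand setting is not stated in any source used here. Per the file headers, the authors deposited for each gene an RPKM, an estimated count (not whole at 1062 genes without and 825 with doxycycline) and an RMS-normalized RPKM, a ratio to the RMS over genes. Tables were joined by gene name. The deposited merged table held other values for 140 genes, 0 of them members, and was an alternative only. Gene models differed for 237 genes, 0 of them members.

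CPM used the counts as deposited; intervals (exact conditional, Clopper-Pearson, 95%) used rounded counts, halved. Calls of 2-fold and 1.5-fold used log2(RPKM + 0.5), which understates differences of low genes, where RPKM reached 1 in either library. Relative medians subtract the median of all measured genes. The fold and interval steps were checked on simulated counts, with full counts and with 2-fold calls on the CPM ratio. The halving and the calls on log2(RPKM + 0.5) were not checked in this way. Alternative scalings came from edgeR 4.0.16 (TMM, upper quartile) and DESeq2 1.42.0 (size factors); all else used Python 3.11.15 and scipy 1.17.1. No p-value was computed. Named were all members, 5 related genes, the 4 measured genes of each list with the largest log2 ratio in size, and markers at least 2-fold different; others, on the higher side or abundant, were added after their values were seen. Members and lists were chosen with earlier results of these data known. Promoter windows are from RefSeq (GRCm38.p6), and no coordinates were converted between builds. Protein sequences were not used here.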

Additional observations from a re-analysis of the deposited data

How the results depend on the processing

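The choice of scaling moved some of the values, since the libraries' median ratio depends on it. In RMS-normalized RPKM the median log2 ratio of all genes was -0.40. Over 7 scalings the log2 ratio of Mycn ran from -1.47 to -1.01, past 2-fold in all 7, none of which adds a pseudocount. Mga was at -0.064 and Mnt at -0.22 in RMS-normalized RPKM, against 0.34 and 0.18 in CPM. Members past 2-fold numbered 0 after centring on log2(RPKM + 0.5). Counted with the same 0.5 added, members past 1.5-fold, 3 in the report, numbered 1 with counts scaled per kb, 1 centred and 5 in RMS-normalized RPKM. The members' median was -0.24, -0.21 and -0.60 under these. The Myc-class sum with over without doxycycline was 0.543 on the RPKM scale, 0.608 with counts per kb, 0.616 centred, 0.461 RMS-normalized and 0.630 in summed counts. For Mnt and Mxd it was 0.695, 0.779, 0.789, 0.591 and 0.896. With no filter the relative medians of the ribosome, metabolic and cell cycle target lists were -0.15, -0.21 and -0.34, the median of all genes being -0.10 there. With an RPKM of at least 5 that of repressed targets reversed to 0.26, with 10 genes left of 13. Of the alternatives for single members, 52 stayed within counting error, taken here at full counts, 16 moved beyond it and 2 reversed (Mga and Mnt, above). The 52 include the halved counts of every member, which were placed there by rule. Mnt counts as reversed only because its interval at full counts excludes no difference, while at halved counts it includes it. Among those that moved, Mlx alone changed sign, at -0.068 in the authors' RPKM and -0.30 RMS-normalized. Mxd3 and Myc are limited by depth. No paired analysis was possible because each group has 1 library, and leaving out a replicate was not possible for the same reason.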
